A study of Mus musculus with 19 samples.

Results

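The genes described here assemble triglyceride or coat the lipid droplet that stores it: Gpd1, Gpam, Agpat2, Lpin1, Dgat1, Dgat2, Pnpla3, Cidec and Plin1. They were chosen by gene symbol, older aliases accepted. Of these 9 genes, 8 are named by 15 of the 45037 probe sets of the arrays, which together name 18193 genes; Plin1 was not analysed here. All arrays hold RNA from female NOD (NOD/LtJx) mice, a strain that becomes diabetic through autoimmune loss of its beta cells, kept on a standard diet and light-dark cycle. Fat was profiled from mice given Power Mix (PM, a combination of an IL-2 fusion protein, an antagonist-type mutant IL-15 fusion protein and rapamycin, 3 arrays), from mice given alpha 1-antitrypsin (AAT, a serum protease inhibitor, 2 arrays), from new onset diabetic mice (DIA, 2 arrays) and from normoglycemic mice (NOR, 2 arrays). Pancreatic lymph nodes (PLNs) were profiled from AAT (4 arrays), DIA (2) and NOR (4) mice. Both treatments were given to new onset diabetic mice. The methods also describe insulin dosed by blood glucose, without saying which of the array groups received it. The labels of all samples also carry a streptozotocin protocol, which the methods tie to mice treated earlier with anti-TNF-α and not to the array groups. Age, dose, day of sampling, the fat depot of the arrays, and whether arrays of a group came from separate mice are not given in the sources used here, so p-values measure only the spread between these samples, which may be technical. For the insulin signaling tests the methods name epididymal fat, frozen also for RNA after a fast and an injection of insulin or saline. They do not say whether the arrays used this RNA.

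Triglyceride is built on a glycerol backbone. Gpd1 makes glycerol 3-phosphate from a glycolytic intermediate, and acyltransferases, a phosphatase and a last acyltransferase step then add fatty acids and remove the phosphate. In adipocytes the product is stored in a large droplet whose surface proteins govern growth of the droplet and access of lipases. Insulin favours this storage and restrains lipolysis.

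The values are array signals on a linear scale, set by the authors so that the trimmed mean of each array is the same, and changes are differences of mean log2 signal. A gene with several probe sets is represented by the brightest one over all 19 arrays. Because the median change of all probe sets is not 0 (−0.11 for DIA vs NOR, −0.05 for AAT vs DIA and 0.15 for PM vs DIA in fat), each log2 change is given relative to that median, with its standard error (SE) and the p of the change as measured. A gene passes the study thresholds where its fold change (FC) exceeds 2 and its unadjusted limma p does not exceed 0.05, and it is called where the limma p adjusted over all probe sets is under 0.05. The fat arrays carried strong adipocyte marker signal (summed over 10 genes, 170894 to 349197, against 3183 to 38522 in PLN arrays) and the PLN arrays strong B and T lymphocyte signal (22760 to 52311 over 9 genes in PLNs, with 898 to 2324 in fat). In tissue arrays, fewer cells of a type and less RNA per cell cannot be told apart. Log2 signals of arrays of 1 group correlated at 0.705 to 0.890 over all probe sets, and the number of arrays limits the precision.

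In fat, 7 of the 8 genes had a higher mean in DIA than in NOR mice, and the droplet protein gene Cidec had a lower one. Pnpla3, Dgat2 and Agpat2 passed the study thresholds upward, 3 of the 8 genes, where 3.79% of all probe sets did. None passed downward, where 3.88% did. For 7 of the 8 genes every DIA array lay above every NOR array, which held for 18.0% of all probe sets, and for Cidec every DIA array lay below, which held for 23.2%. The median change of the 8 genes was 1.33, beside 0.01 over all genes. No gene was called by limma, and none of the 45037 probe sets was, although 4036 had an unadjusted p under 0.05; the smallest adjusted p among the 8 genes was 0.388.

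Pnpla3 encodes a lipid droplet protein with lipase and acyltransferase activity that is induced by feeding. Its signal was 1383 and 5077 in DIA fat, against 511 and 296 in NOR fat. The lower DIA array was still above both NOR arrays, and the DIA arrays differed widely from each other. The relative log2 change was 2.88 (SE 0.56, limma adjusted p = 0.388), or 7.34-fold, higher than that of 99.1% of all probe sets. Dgat2, an acyltransferase of the last step that works close to the droplet, had signals of 6906 and 30799.8 in DIA fat, against 2888 and 3376 in NOR fat. Its change was 2.33 (SE 0.72, limma adjusted p = 0.438), and DIA replicate 2 carried much of it. Agpat2, which acylates lysophosphatidic acid and whose loss in people and mice causes a near absence of fat tissue, had signals of 7501 and 10563 in DIA fat, against 2884 and 2119 in NOR fat. Here both DIA arrays stood well clear of both NOR arrays, and the change was 1.95 (SE 0.53, limma adjusted p = 0.417).

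The other enzymes were higher in both DIA arrays but did not pass the thresholds. Dgat1, the other acyltransferase of the last step, had signals of 14244 and 12739.9 in DIA fat, against 5189 and 4411 in NOR fat. The DIA arrays lay close together and the NOR arrays too, yet the spread in the treated groups, which enters the shared error, left the change of 1.60 with an SE of 0.80 (limma adjusted p = 0.614). Gpam, the mitochondrial acyltransferase that adds the first fatty acid to glycerol 3-phosphate, had signals of 27805 and 34354 in DIA fat, against 15498 and 16461 in NOR fat (change 1.06, SE 0.44, limma adjusted p = 0.562). Gpd1 had signals of 4928 and 7952 in DIA fat, against 4288 and 2819 in NOR fat. The groups did not overlap, but the lower DIA array was near the higher NOR array, and the change of 0.95 had an SE of 0.63 (limma adjusted p = 0.717).

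Lpin1 and Cidec showed other patterns. Lpin1, a phosphatidate phosphatase that also acts as a transcriptional coactivator, had signals of 5787 and 5697 in DIA fat, against 4548 and 3821 in NOR fat (change 0.57, SE 0.37, limma adjusted p = 0.74). Another Lpin1 probe set, also bright in fat, had 3727 and 4680 in DIA fat, against 4575 and 3910 in NOR fat. The groups overlapped there, so the higher DIA signal of Lpin1 rests on its main probe set. Cidec, which joins droplets into the single large droplet of white adipocytes, had signals of 17103 and 27253 in DIA fat, against 42142 and 33249.5 in NOR fat. It was the only one of the 8 genes with a lower DIA mean, with a change of −0.69 (SE 0.42, limma adjusted p = 0.61).

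**Figure D1:**
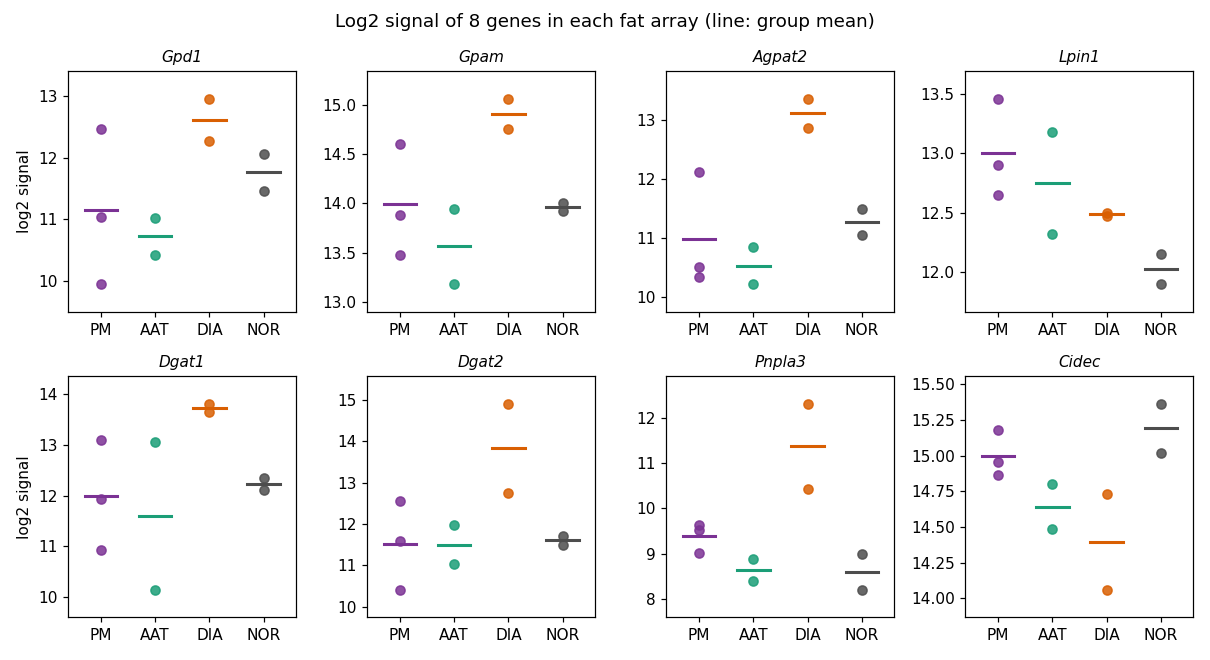
Log2 signal (y axis) of the 8 genes in each fat array, with a panel per gene and PM, AAT, DIA and NOR arrays along the x axis; each point is 1 array and each line a group mean. In 7 panels both DIA points lie above both NOR points, and in the Cidec panel both lie below; the Lpin1 panel has its highest point in PM.

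Measures of RNA quality and of other cell types moved with the DIA group. The ratio of the 3′ to the 5′ actin control signal was 15.2 and 15.5 in the DIA fat arrays, against 3.63 and 4.30 in NOR fat, and lay between 3.35 and 9.08 in the treated arrays. The Gapdh control ratio was 2.46 to 4.63 in DIA fat, against 0.910 to 0.946 in NOR fat. The log2 actin ratio was added as a covariate, in a fit made after the data were seen. The median change of the 8 genes in DIA vs NOR was then −1.44. Only Pnpla3 stayed above the median of all probe sets (2.38), and Dgat1 passed the thresholds downward (−3.70). In this fit 2428 of all probe sets passed downward and 2206 upward, against 1746 and 1709 without the covariate. As no other fat array had an actin ratio as high as the DIA arrays, the diabetic state and this ratio cannot be told apart here. The summed macrophage marker signal was 15767 to 28573 in DIA fat, against 7490 to 7548 in NOR fat, with 9 of 10 markers above the median change and none of them called; its part in the result was not tested. Of 7 fibroblast markers, 6 lay above, with a summed signal of 36779 to 66381 in DIA fat, against 27013 to 34600 in NOR fat. Adipocyte markers divided evenly, with 5 of 10 above and 5 below the median and a summed signal of 183782 to 322311 in DIA fat, against 285536 to 349197 in NOR fat. The median changes of the other marker lists were 0.64 for B and T lymphocytes, 0.58 for endothelium, 0.19 for skeletal muscle, −0.03 for mammary epithelium, −0.06 for brown adipocytes, −0.25 for pancreatic acinar cells and −1.73 for erythroid cells (3 genes).

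**Figure D2:**
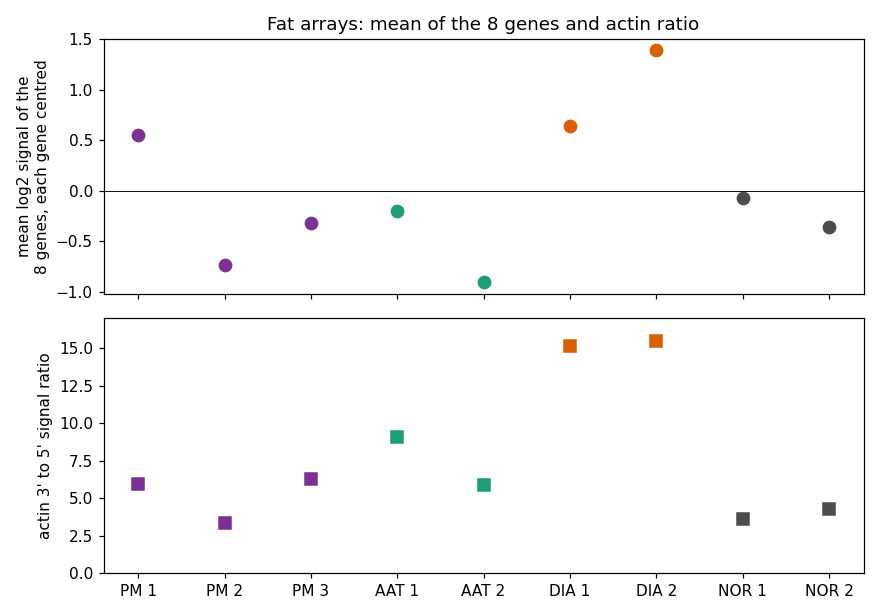
Mean log2 signal of the 8 genes, each centred on its mean over the 9 fat arrays (upper panel), and ratio of the 3′ to the 5′ actin signal (lower panel, linear), for each fat array in the order PM, AAT, DIA, NOR. The DIA arrays have the highest gene means (0.64 and 1.39) and the highest actin ratios (15.2 and 15.5), and PM 1 has a gene mean of 0.55 at an actin ratio of 5.93.

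Under AAT, 6 of the 8 genes were lower than in DIA fat and passed the study thresholds downward, where 1.82% of all probe sets did, and none passed upward, where 2.03% did. For each of these 6 both AAT arrays lay below both DIA arrays, which held for 17.7% of all probe sets. The median change of the 8 genes was −1.95, beside 0.04 over all genes. No gene was called by limma (adjusted p 0.688 for Pnpla3 and Agpat2 and 1.00 for the other genes), and no probe set was, with 2137 at an unadjusted p under 0.05. This comparison shares its DIA arrays with that of DIA against NOR, so a high DIA value enters both with opposite sign.

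Pnpla3 signals were 469 and 335 in AAT fat, against the DIA values given above, a change of −2.69 (SE 0.56). Agpat2 signals were 1841 and 1183 in AAT fat (change −2.54, SE 0.53). In AAT fat Agpat2, and also Gpd1 and Cidec, lay below both NOR arrays, and none of them passed the study thresholds in AAT vs NOR. The share of all probe sets that lay so is not given here. Dgat2 signals were 3999 and 2095 in AAT fat (change −2.28, SE 0.72). Dgat1 signals were 8495 and 1139.8 in AAT fat (change −2.07, SE 0.80). AAT replicate 1 and replicate 2 differed more for Dgat1 than the AAT and DIA means did. Gpd1 signals were 1379 and 2085 in AAT fat (change −1.84, SE 0.63). Gpam signals were 15795 and 9258 in AAT fat (change −1.31, SE 0.44). Lpin1 signals were 9275 and 5118 in AAT fat (change 0.31, SE 0.37) and Cidec signals 22905 and 28600 (change 0.29, SE 0.42), and both overlapped the DIA arrays.

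Under PM, 5 of the 8 genes passed the study thresholds downward against DIA fat, where 3.09% of all probe sets did, and none passed upward, where 4.6% did. The median change was −1.75, beside −0.05 over all genes. PM replicate 1 stood above the other PM arrays for every gene but Cidec. No gene was called by limma (adjusted p 0.325 for Agpat2 to 0.646 for Lpin1), and no probe set was, with 4365 at an unadjusted p under 0.05.

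Dgat2 signals were 5985, 1362 and 3103 in PM fat (change −2.46, SE 0.65). Agpat2 signals were 4461, 1286 and 1454 in PM fat (change −2.28, SE 0.48). Pnpla3 signals were 789, 740 and 520 in PM fat (change −2.13, SE 0.51). All PM arrays lay below both DIA arrays for these 3 genes. Dgat1 signals were 8718, 1959 and 3909 in PM fat (change −1.88, SE 0.73), again below both DIA arrays. Gpd1 signals were 5624, 988 and 2099 in PM fat, and the first of these exceeded a DIA array (change −1.61, SE 0.58). Gpam signals were 24886, 11419 and 15142 in PM fat, below both DIA arrays, with a change of −1.07 (SE 0.40) that stayed under an FC of 2 as measured. Groups that did not overlap downward numbered 5 of the 8 genes, where 11.7% of all probe sets had this, and those that did not overlap upward were Lpin1 and Cidec, where 18.3% had this.

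Lpin1 had signals of 11247, 6431 and 7654 in PM fat, all above both DIA arrays, with a change of 0.37 (SE 0.34). Its other bright probe set in fat had signals of 11977, 7574 and 7062 in PM fat, against 3727 and 4680 in DIA fat, and passed the study thresholds upward (change 0.90, SE 0.34, limma adjusted p = 0.42). Cidec signals were 29841, 37189 and 31708 in PM fat (change 0.45, SE 0.38). Cidec thus had its lowest group mean in DIA fat and a higher mean in PM, AAT and NOR fat. Its AAT signals (22905 and 28600) overlapped the DIA arrays and lay below both NOR arrays.

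**Figure D3:**
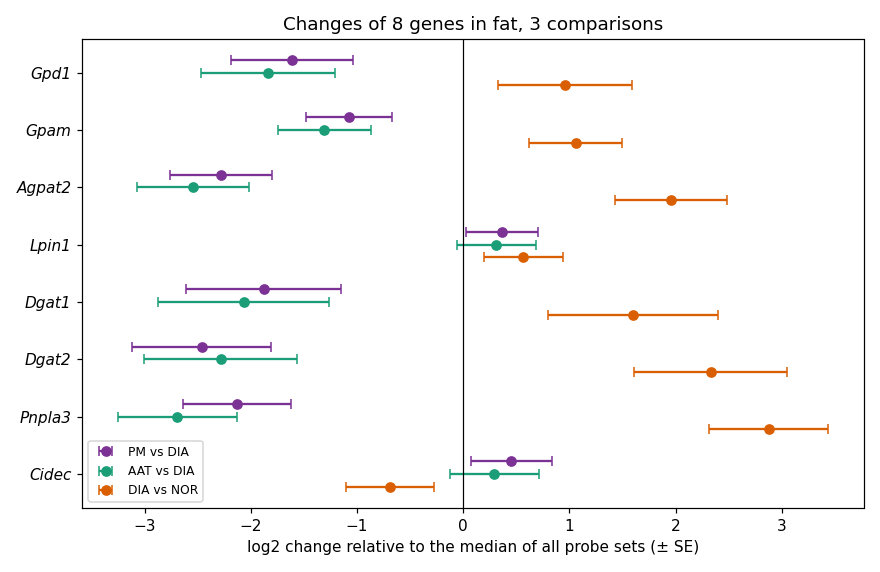
Log2 change relative to the median of all probe sets (x axis, points with SE bars) of the 8 genes (rows) in fat for PM vs DIA, AAT vs DIA and DIA vs NOR, which share the DIA arrays. Gpd1, Gpam, Agpat2, Dgat1, Dgat2 and Pnpla3 have positive DIA vs NOR and negative PM vs DIA and AAT vs DIA changes; Lpin1 is positive in all 3, and Cidec is negative only in DIA vs NOR.

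Agpat2, Dgat2 and Pnpla3 were counter-regulated by both treatments at the study thresholds on their main probe sets. They were higher in DIA than NOR and lower in AAT and PM than DIA, and 0.275% of all probe sets met these conditions together. The other Dgat2 probe set did not meet them. With the actin covariate the median change of the 8 genes was −0.072 in AAT vs DIA, with Agpat2 and Pnpla3 past the thresholds downward. It was 0.66 in the PM comparison, with Lpin1 past them upward. In AAT vs DIA 2446 of all probe sets then passed downward and 2085 upward, against 820 and 913 without the covariate. In PM vs DIA 1922 passed downward and 2059 upward, against 1391 and 2072 without it. The counts of the 8 genes past the thresholds also moved with single arrays. Without DIA replicate 2, 2 genes (AAT vs DIA) and 1 gene (PM vs DIA) passed, all downward, with medians of −1.27 and −1.14. In DIA vs NOR without it (median 0.99), Pnpla3 and Agpat2 passed upward, Dgat2 did not pass (1.17), and Cidec passed downward (−1.11). Without AAT replicate 2, 3 genes passed in AAT vs DIA (median −1.26), and without PM replicate 2 or PM replicate 3, 3 passed in PM vs DIA (medians −1.10 and −1.70). Other markers moved in the same comparisons. Adipocyte markers lay below the median change for 8 of 10 genes in AAT vs DIA (median −0.73) and for 7 of 10 under PM (median −0.65), with summed signals of 195611 to 276780 in PM fat and 170894 to 191451 in AAT fat. Macrophage markers lay below it for 7 of 10 genes under AAT (median −0.47) and for 10 of 10 under PM (median −0.67), and fibroblast markers for 4 of 7 (median −0.33) and 6 of 7 (median −1.57). Their part in the results was not tested.

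Directly set against each other, PM and AAT fat gave no gene past the study thresholds in either direction (3.05% of all probe sets upward and 1.83% downward). The largest difference was that of Pnpla3, higher in PM by 0.59 (SE 0.51). None of the 8 genes passed in AAT vs NOR (2.23% upward, 2.33% downward) or in PM vs NOR (2.31% upward, 0.808% downward), with medians of −0.34 and −0.16. Lpin1 was the gene that stood highest against NOR fat in both, at 0.86 in AAT (SE 0.37) and 0.96 in PM (SE 0.34, FC 1.97), with no overlap of arrays, which held upward for 12.9% (AAT) and 8.68% (PM) of all probe sets. Its other bright probe set passed in PM vs NOR (change 1.01, SE 0.34, limma adjusted p = 1.00). Pnpla3 also had all PM arrays above both NOR arrays (520 to 789 in PM fat, against 296 to 511 in NOR fat). Gpd1 had the lowest changes against NOR, −0.90 in AAT fat (SE 0.63) and −0.63 in PM fat (SE 0.58).

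Over the 9 fat arrays, 6 of the genes varied together. The Pearson correlation of each with the mean of the other 7 was 0.97 for Gpam, 0.95 for Agpat2, 0.92 for Dgat2, 0.81 for Dgat1 and 0.79 for Gpd1 and Pnpla3, but 0.10 for Lpin1 and −0.46 for Cidec. Among those 6, the 15 pairwise correlations ran between 0.61 and 0.95. The points are 9 arrays of 4 groups, so the group differences above enter these values, and arrays share RNA quality and tissue makeup. PM replicate 1 and AAT replicate 1 stood above their group mates in the mean of the 8 genes, at 0.55 against −0.74 and −0.31 in PM, and at −0.20 against −0.90 in AAT. The mean log2 signal of the adipocyte markers was 13.3, 11.5 and 13.0 in PM replicates 1, 2 and 3, 13.1 and 11.1 in AAT, 12.2 and 13.6 in DIA, and 12.6 and 13.3 in NOR replicates 1 and 2. Within PM, AAT and DIA this marker mean ordered the arrays as the mean of the 8 genes did. In NOR it did not, since the mean of the 8 genes was −0.07 in replicate 1 and −0.36 in replicate 2. Between groups the order also differed. DIA replicate 1 had a gene mean of 0.64 and a marker mean of 12.2, against 0.55 and 13.3 in PM replicate 1. Of 9089 genes with a fat signal at or above the median, those most like the mean of the 8 genes were Znhit1 (r = 0.97), Hsd17b12 (0.96), H1f10 (0.96), Insig1 (0.95) and Acss2 (0.95).

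The start regions of genes that moved together and of Cidec, which did not, are printed to let them be compared. RefSeq windows (build GRCm38.p6) of 250 bases before to 50 bases after the start matched 5 of the 8 genes, with 2 windows each for Gpam and Cidec and 1 each for Agpat2, Lpin1 and Pnpla3. Sequences run 5′ to 3′ on the strand of the gene, and capitals mark matches on either strand to the GC box GGGCGG or the CCAAT box CCAAT, the letters found among those searched. The Pnpla3 window lies at chr15:84167566-84167865 on the plus strand, and the Agpat2, Gpam and Cidec windows shown at chr2:26604368-26604667, chr19:55127189-55127488 and chr6:113435711-113436010 on the minus strand.
Pnpla3: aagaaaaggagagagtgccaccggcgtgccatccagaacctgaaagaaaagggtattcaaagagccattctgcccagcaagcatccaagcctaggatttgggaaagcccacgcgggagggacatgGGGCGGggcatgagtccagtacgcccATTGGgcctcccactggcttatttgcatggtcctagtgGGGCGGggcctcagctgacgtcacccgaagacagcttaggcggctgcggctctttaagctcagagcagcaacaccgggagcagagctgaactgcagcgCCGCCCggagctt
Agpat2: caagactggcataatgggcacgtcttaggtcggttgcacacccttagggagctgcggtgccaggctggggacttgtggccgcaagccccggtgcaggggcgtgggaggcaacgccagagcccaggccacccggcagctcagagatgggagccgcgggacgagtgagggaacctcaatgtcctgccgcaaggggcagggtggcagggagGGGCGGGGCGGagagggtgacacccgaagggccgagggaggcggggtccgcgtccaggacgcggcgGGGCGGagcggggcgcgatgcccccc
Gpam: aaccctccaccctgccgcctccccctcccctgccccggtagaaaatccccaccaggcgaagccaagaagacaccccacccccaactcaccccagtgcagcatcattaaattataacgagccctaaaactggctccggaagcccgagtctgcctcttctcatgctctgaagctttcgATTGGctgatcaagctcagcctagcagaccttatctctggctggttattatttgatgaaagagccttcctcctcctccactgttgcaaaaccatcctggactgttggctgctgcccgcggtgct
Cidec: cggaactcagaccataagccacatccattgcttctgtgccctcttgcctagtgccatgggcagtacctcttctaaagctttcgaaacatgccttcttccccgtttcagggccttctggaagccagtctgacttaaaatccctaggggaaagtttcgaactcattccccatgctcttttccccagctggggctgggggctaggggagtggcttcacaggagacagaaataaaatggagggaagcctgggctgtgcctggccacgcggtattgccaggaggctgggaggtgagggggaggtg

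Pnpla3 held 3 GC boxes and a CCAAT box that begins 99 bases before the start site. Agpat2 held 3 GC boxes, of which the upstream pair, beginning 42 and 37 bases before the start, overlaps by 1 base. The Gpam window shown held a CCAAT box and its other window a GC box, so GC boxes occurred in 3 of the 7 windows, where 35.7% of all 32851 windows of this length held one, and CCAAT boxes in 2 of 7, where 37.4% did. The Cidec windows and the Lpin1 window held neither. The E-box CACGTG (7.15% of all windows), the TATA box TATAAA (13.6%) and a direct repeat of AGGTCA spaced by a single base (0.0396%) were in none of the 7. A match describes letters and not a bound site.

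The other genes of the pathway divided more evenly. Of 19 other triglyceride assembly genes, 17 were measured; in DIA vs NOR fat 8 lay above and 9 below the median, 1 passed the study thresholds upward and none downward. That gene was Gpat3, the endoplasmic reticulum acyltransferase of the step that Gpam catalyses in mitochondria (4275 to 4789 in DIA fat, against 1397 to 2306 in NOR fat, change 1.44, SE 0.60). In AAT vs DIA none of the 17 passed upward and 2 downward, Gpat3 (−1.31, SE 0.60) and Mogat2, a monoacylglycerol acyltransferase (63.9 to 175 in AAT fat, against 544 to 656 in DIA fat, change −2.45, SE 0.94). Agpat3 had the smallest p of the list there (change −0.94, SE 0.33) at an FC under 2. In PM vs DIA none of the 17 passed in either direction, and 12 lay below the median.

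Of 20 other lipid droplet genes, all were measured, and their median changes were 0.29 in DIA vs NOR, −0.20 under AAT and −0.50 under PM, both set against DIA. Rab18, a small GTPase of the droplet surface, was the 1 gene past the study thresholds downward in DIA vs NOR (874 to 1293 in DIA fat, against 2083 to 2294 in NOR fat, change −0.93, SE 0.36). It was the 1 gene past them upward in AAT vs DIA (1.07, SE 0.36) and also when PM fat was set against DIA fat (0.94, SE 0.33). Bscl2, which encodes seipin and acts where droplets form, passed downward in AAT vs DIA (5085 to 10489 in AAT fat, against 16957 to 18734 in DIA fat, change −1.24, SE 0.45). No gene of either list was called by limma in these 3 comparisons.

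In NOR mice, 7 of the 8 genes were called higher in fat than in PLNs by limma, where 10.3% of all probe sets were, and the median change was 3.26, beside 0.18 over all genes. Cidec had signals of 42142 and 33249.5 in NOR fat, against 62.2 to 158 in the 4 NOR PLN arrays (change 8.43, SE 0.53, limma adjusted p = 2.9e-10). Gpd1 had signals of 4288 and 2819 in NOR fat, against 359, 16.2, 12.4 and 22.5 in NOR PLNs, with PLN replicate 1 apart from the rest (change 6.56, SE 1.28, limma adjusted p = 0.000679). The changes of Dgat2 (3.71, SE 0.67), Agpat2 (3.37, SE 0.51), Lpin1 (3.14, SE 0.57), Dgat1 (2.63, SE 0.74) and Gpam (2.39, SE 0.57) had limma adjusted p between 4.58e-05 and 0.0117. Pnpla3 was the exception, with 511 and 296 in NOR fat, against 296, 222, 102 and 373 in NOR PLNs (change 0.76, SE 0.67, limma adjusted p = 0.423). The call of Dgat1 was lost without either fat NOR array (limma adjusted p 0.0993 without replicate 1 and 0.0689 without replicate 2). With the mean over probe sets, 5 of the 8 genes were called, without Dgat1 (limma adjusted p = 0.17) and Gpam (0.0664). The second probe sets of Dgat1 (−0.18, SE 0.68) and Gpam (−0.53, SE 0.68) did not show the difference between tissues. Of the other lipid droplet genes, 13 of 20 were called higher in fat and none lower, where 11.9% of all probe sets were, and of the other triglyceride assembly genes 6 of 17 were called higher and 4 lower.

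**Figure D4:**
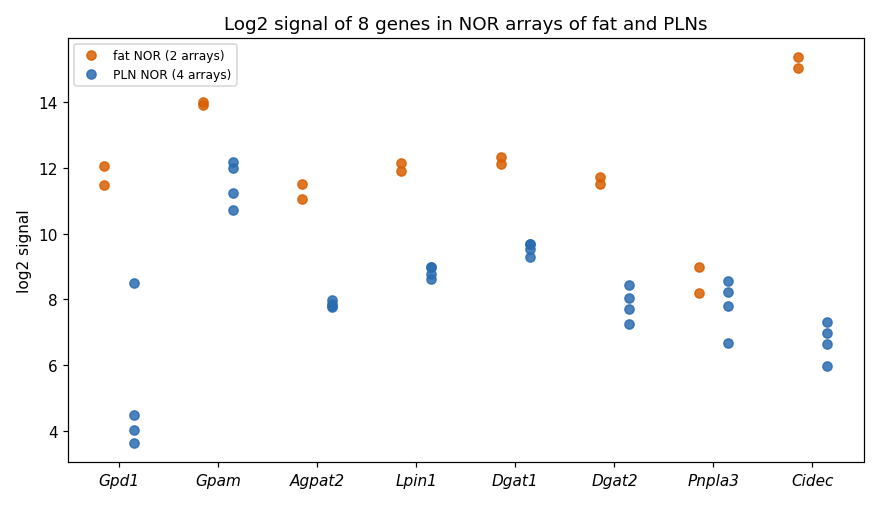
Log2 signal (y axis) of the 8 genes (x axis) in NOR arrays of fat (2 arrays, left) and PLNs (4 arrays, right); each point is 1 array. Cidec has the largest relative change (8.43), and the fat and PLN points of Pnpla3 overlap.

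In PLNs the genes did not move as a group. In DIA vs NOR PLNs, 4 lay above and 4 below the median of all probe sets, with a median change of −0.17. Lpin1 alone passed the study thresholds, downward, where 7.15% of all probe sets did, and none passed upward, where 2.66% did. Its signals were 62.7 and 199 in DIA PLNs, against 508, 391, 440 and 504 in NOR PLNs (change −1.92, SE 0.77, limma adjusted p = 0.368). Its other probe set went the opposite way, with 606 and 240 in DIA PLNs, against 20.5 to 149 in NOR PLNs (change 2.35, SE 1.11), with no overlap either, which held upward for 8.99% of all probe sets, so no direction is given for Lpin1 in PLNs. Agpat2 (75 and 164 in DIA, 220 to 255 in NOR) and Dgat1 (337 and 534 in DIA, 627 to 826 in NOR) also had both DIA arrays below all NOR arrays, which held downward for 14.1% of all probe sets, with changes of −0.95 (SE 0.72) and −0.71 (SE 0.75). The DIA arrays of Pnpla3 (960 and 175), Cidec (400 and 70.1) and Gpam (658 and 4746) lay so far apart that each overlapped the NOR arrays. Without DIA replicate 1 no gene passed the thresholds, and without DIA replicate 2, 1 passed upward and 2 downward.

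Under AAT, the PLN arrays differed from NOR PLNs in 1 called gene. Dgat1 had signals of 300, 387, 63.6 and 51.5 in AAT PLNs, against 826, 744, 627 and 823 in NOR PLNs, with no overlap, which held downward for 11.8% of all probe sets. Its change was −1.70 relative to the median of all probe sets, which itself was −0.72 (SE 0.61, limma adjusted p = 0.0364), where 2.64% of all probe sets were called downward. The other Dgat1 probe set was lower too (113 to 323 in AAT, 628 to 1145 in NOR, change −0.91, SE 0.53, limma adjusted p = 0.0756). Over 19 other settings the Dgat1 change lay between −2.28 and −1.32, and it was called in 10 of them and not in 9, among these quantile normalization (limma adjusted p = 0.111), median centring (0.203), and the fits without any 1 of the NOR arrays (0.0783 to 0.129) or without AAT replicate 3 (0.0791) or AAT replicate 4 (0.0947). Lpin1 also passed the study thresholds downward on its main probe set, again with no overlap (change −0.61, SE 0.63), where 20% of all probe sets did, but no longer without any 1 of the NOR arrays or without AAT replicate 1, 3 or 4. No gene passed upward on its main probe set, where 3.36% did. This split depended on the scaling. Cidec and Dgat2 passed upward and Dgat1 alone downward both after quantile normalization and after median centring, where all probe sets gave 3227 up and 3450 down (quantile) and 5864 up and 2899 down (centring), against 1512 up and 9019 down as scaled by the authors. Among the other probe sets, 2 of Gpd1 that were dim in PLNs passed upward, with 42.8 to 156 in AAT, against 1.92 to 64.8 in NOR PLNs, and with 14.2 to 39.6 in AAT, against 0.542 to 4.01 in NOR PLNs.

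Cidec had signals of 336, 354, 137 and 199 in AAT PLNs, against 125, 99.5, 62.2 and 158 in NOR PLNs (change 1.90, SE 0.70), and Gpd1 had 538 in AAT replicate 2 and 10.2 to 28.6 in the other AAT arrays. The summed adipocyte marker signal was 8980 to 38522 in AAT PLNs, with 30264 in AAT replicate 2. This sum was above the 4354 to 8170 of NOR PLNs and the 3183 to 5150 of DIA PLNs. Fabp4 had the highest signals of the list there (6976 to 26983 in AAT PLNs, against 2541 to 4612 in NOR PLNs). The mean log2 signal of the list overlapped, at 6.96 to 9.26 in AAT PLNs and 6.85 to 7.93 in NOR PLNs. Of the 10 adipocyte markers, 2 were called higher in AAT than NOR PLNs by limma and none lower. At the study thresholds 2 passed upward and 1 downward, where 3.36% and 20% of all probe sets did. The summed macrophage marker signal was 56818 to 104412 in AAT PLNs, 50779 to 67249 in DIA PLNs and 35146 to 55872 in NOR PLNs. AAT replicate 3 had a summed signal of 298649 for 9 pancreatic acinar genes and DIA replicate 1 one of 15747, against 509 to 2346 in NOR PLNs. The Gapdh control ratio was 7.43 to 25 in AAT PLNs, against 5.55 to 8.01 in NOR PLNs. The part of these in the PLN values was not tested.

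In AAT vs DIA PLNs the median change was 0.80, beside 0.28 over all genes. Dgat1 was the 1 gene past the study thresholds, downward (change −1.02, SE 0.75), where 11.7% of all probe sets did, and none passed upward, where 4.83% did. Dgat1 no longer passed without either DIA array, without AAT replicate 3 or 4, or without any 1 of the NOR arrays, which share the error estimate, and 2 genes passed without DIA replicate 2 (neither of them Dgat1) or without AAT replicate 1. After quantile normalization no gene passed (3408 probe sets up and 2369 down), and after median centring Gpam passed upward and none downward (5280 up and 1334 down), against 2174 up and 5275 down of all probe sets as scaled by the authors. Gpam had the largest upward change (1.57, SE 0.62), while its other probe set passed downward (−1.34, SE 0.74). The test of the difference between tissues called none of the 8 genes, where 0.00444% of all probe sets were called for DIA vs NOR and 0 for AAT vs DIA. The DIA vs NOR change was larger in fat than in PLNs by 2.82 for Agpat2 (SE 0.78, limma adjusted p = 0.255). The AAT vs DIA change was lower in fat than in PLNs for all 8 genes relative to the median, with a difference of −3.84 for Agpat2 (SE 0.78, limma adjusted p = 0.294).

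**Figure D5:**
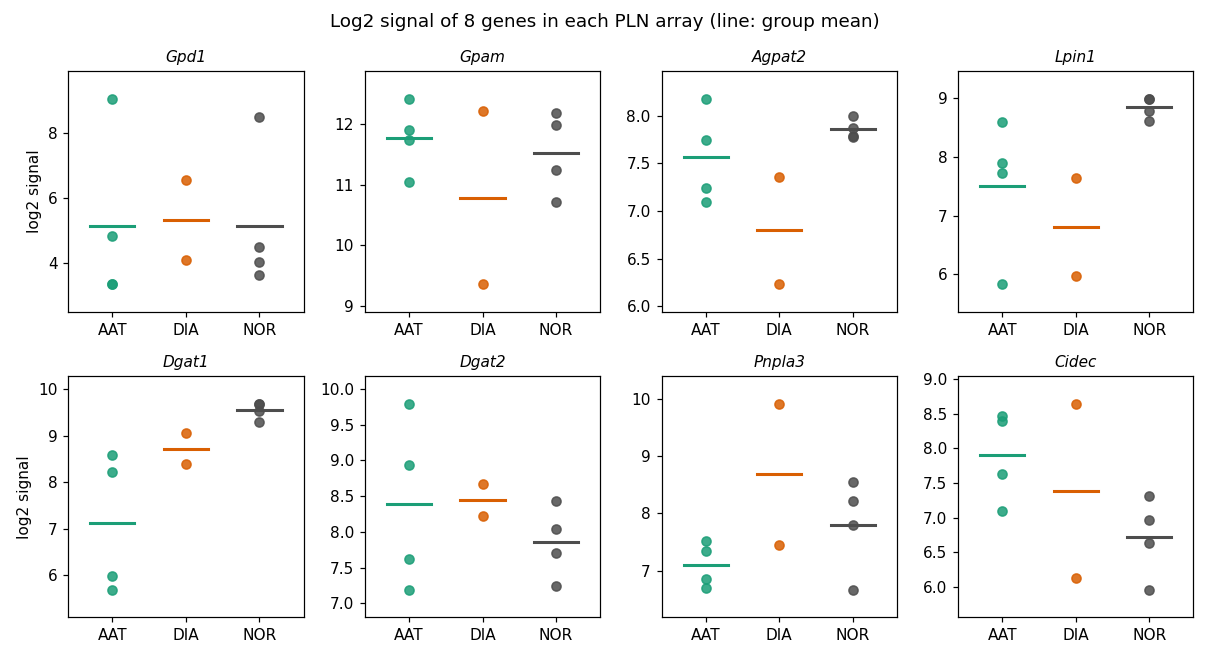
Log2 signal (y axis) of the 8 genes in each PLN array, with a panel per gene and AAT, DIA and NOR arrays along the x axis; each point is 1 array and each line a group mean. For Dgat1 all 4 AAT points lie below all 4 NOR points, and for Pnpla3, Cidec and Gpam the 2 DIA points lie far apart.

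The remaining probe sets of these genes were mostly dimmer and gave weaker or other changes in fat. The other Dgat2 probe set had 1003 and 6404 in DIA fat, against 1173 to 1714 in NOR fat, so that the groups overlapped (change 0.94, SE 0.70). Its signals of 845 to 1297 in AAT fat and 990 to 2189 in PM fat overlapped the DIA arrays too. The other Dgat1 probe set changed by 0.85 (SE 0.77) in DIA vs NOR and passed the study thresholds downward in AAT vs DIA (−1.98, SE 0.77). The other Gpam probe set had only 128 to 433 in fat and a DIA vs NOR change of −0.01 (SE 0.63). Of the other Gpd1 probe sets, the first ranged over 112 to 1034 in fat (DIA vs NOR change 0.87, SE 0.94). The second was lower in DIA (482 and 709) than in NOR (996 to 1172) fat, opposite to the main probe set (change −0.78, SE 0.39). Its signals of 978 to 1257 in PM fat lay above both DIA arrays, again opposite to the main probe set. Those of 408 to 729 in AAT fat overlapped the DIA arrays. The third stayed at 3.39 to 36.7.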

How the data were processed

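Fat and PLNs of female NOD mice were profiled on 19 Affymetrix Mouse 430 2.0 arrays after Trizol extraction and amplification. The deposited values are intensity, 1 linear signal per probe set, which the authors made with MAS5 and scaled per array (MAS5 version not given in the sources used here). RMA values and the rank product test of the methods were not used. Signals under 1 were set to 1 and log2 was taken with no further normalization. Of 45037 probe sets (64 controls left out), 34945 name 1 gene, 932 several and 9160 none; 34741 symbols were updated through Entrez identifiers.

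Linear models with a mean per group were fitted with limma 3.58.1 (eBayes with trend, R 4.3.3, labels read with jsonlite 2.0.0), 1 fit per tissue and 1 fit of all 19 arrays for comparisons between tissues, and p-values were adjusted by the Benjamini-Hochberg method. The fits were tested on simulated data. Samples were grouped by the tissue and status on their labels. The genes, gene lists and tests were chosen with earlier results of these data known. Named are all genes of the set, up to 4 genes of each of 2 further lists with the smallest p in a main fat comparison, and the 5 other genes most correlated with the mean of the set. Lists of adipocyte, brown adipocyte, lymphocyte, macrophage, endothelial, fibroblast, acinar, muscle, mammary and erythroid markers were also measured. Alternatives were fits restricted to the groups compared, the replicate number as a block, quantile normalization, median centring of arrays, a filter on mean signal at the 40th percentile, 32 added before log2, signals raised to the 20th percentile, eBayes without trend, the mean over probe sets, each array left out, and, chosen after seeing the data, the actin ratio as a covariate in fat.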

Additional observations from a re-analysis of the deposited data

How the results depend on the processing

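The median change in DIA vs NOR fat kept its direction under all alternatives but the actin covariate, chosen after seeing the data, which gave −1.44 with 1 gene past the study thresholds; it gave −0.072 with 2 genes in AAT vs DIA and 0.66 with 1 gene in PM vs DIA. Genes that changed sign there were Agpat2 (−0.45), Dgat1 (−3.70), Dgat2 (−1.72), Gpam (−1.39), Lpin1 (−1.48) and Gpd1 (−1.64) in DIA vs NOR, Dgat1 (0.78) in AAT vs DIA, and Dgat1 (2.45), Dgat2 (0.84), Gpam (0.90) and Gpd1 (0.49) in PM vs DIA. The mean over probe sets gave −1.30 in AAT vs DIA and −1.19 with 3 genes in PM vs DIA, turned Lpin1 in PLNs (0.24 in DIA vs NOR, 0.25 in AAT vs NOR), and left 0 genes in DIA vs NOR PLNs and 1 in AAT vs NOR PLNs. Without trend, 3 genes passed in PM vs DIA fat, 0 in AAT vs DIA PLNs and 1 in AAT vs NOR PLNs. In AAT vs DIA PLNs, 0 genes passed with only the groups compared, the replicate block or quantile normalization, and 2 with log2 of the signal plus 32. Scaling moved the split of all probe sets past the study thresholds from 913 up and 820 down to 1177 and 680 (centring) in AAT vs DIA fat, from 2072 and 1391 to 1510 and 1725 (centring) in PM vs DIA fat, and from 1196 and 3222 to 2676 and 3773 (quantile) in DIA vs NOR PLNs. The cause was not tested.

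Leaving out each array in turn, with genes past the thresholds counted in either direction, the median lay between 0.99 and 1.49 in DIA vs NOR fat (3 to 4 genes, 2 up and 1 down without DIA replicate 2), between −2.43 and −1.26 in AAT vs DIA fat (2 to 6 genes), and between −2.38 and −1.10 in PM vs DIA fat (1 to 6 genes). In PLNs it lay between −0.39 and 0.05 in DIA vs NOR (0 to 3 genes), between 0.32 and 1.19 in AAT vs DIA (0 to 2 genes) and between 0.08 and 0.90 in AAT vs NOR (1 to 2 genes). Where this leaves 1 array in a group, that array is assumed to vary like the others. Between the tissues the median lay between 3.18 and 3.30, with 7 genes past the thresholds. For a gene called by limma in the main fit the threshold was its call, and for the other genes the study thresholds. Of 1021 values of single genes under an alternative, 888 kept their direction and side of this threshold. A further 75 lost their call or no longer passed, 21 passed newly, 28 below the thresholds changed sign and 9 reversed.

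The replicate number as a block left the medians at 1.33, −1.95 and −1.70 in the 3 fat comparisons, with 4, 6 and 4 genes past the thresholds, and in PLNs gave −0.53 (DIA vs NOR, 1 gene), 1.28 (AAT vs DIA, 0 genes) and 0.58 (AAT vs NOR, 2 genes). Deviations of same-numbered arrays correlated over 0.1 in 2 of 12 fat pairs (r between −0.26 and 0.29) and in 6 of 8 PLN pairs (−0.04 to 0.28), those of replicates 1 and 2, and as this did not hold for every pair the numbers are not taken to pair samples. No fit with the block was made between the tissues.

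The 2 to 4 arrays per group limit every comparison, and dim probe sets, such as those of Gpd1 in PLNs, have only a few signal units.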
